A study of Homo sapiens with 7 samples.

Results

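The genes described here encode the proteins that hold human embryonic stem cells to their matrix and to each other, together with the keratin filaments that anchor to those contacts. They were taken by symbol: integrins (symbols starting with ITGA or ITGB), cadherins (CDH followed by a digit), protocadherins (PCDH), claudins (CLDN), connexins (GJA, GJB or GJC), zonula occludens proteins (TJP), desmosomal cadherins (DSG, DSC), plakophilins (PKP), keratins (KRT followed by a digit), ICAMs, and DSP, JUP, ESAM, EPCAM, CTNNA1, CTNNB1 and VIM. The platform annotation named 222 such genes, read by 345 probes, among 12851 named genes in all. Of these, 94 genes had a probe above background (a detection p-value under 0.01) on at least 1 of the 7 arrays, 52 of them on all 7 arrays and 19 on a single array. The other 128 named genes, among them KRT18, were not above background on any array, and DSP, EPCAM, CTNNA1, CTNNB1, VIM and the desmogleins and desmocollins were not analysed here because the annotation used does not name them. The symbols also took in 9 measured genes that are not family members proper, namely ITGB1BP1 and ITGB3BP (proteins that bind integrin tails), ITGBL1, CLDND1, CLDND2, the pseudogenes KRT16P2, PCDHB17P and PCDHB19P, and the antisense RNA KRT10-AS1.

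Total RNA came from H1, a long-established line of human embryonic stem cells, kept on matrigel and passaged with the ROCK inhibitor Y27632 at 5 μM, which was taken away after 24 hours. All cells received E8, an albumin-free defined medium, for 2 days, either alone or with AlbuMAX (a lipid-rich bovine albumin) at 1.6%, albumin at 1%, CDL (a chemically defined concentrate of lipids) at 1%, hCDL (a homemade lipid mixture) at 0.1x, lysophosphatidic acid (LPA) at 1 μM, or LPA at 1 μM together with albumin at 1%. For hCDL the sample title gives 0.01% where the treatment label gives 0.1x. Each medium has 1 Illumina bead array and hence no replicates, the number of arrays limits the precision, and the cells are 1 line. Between 34.6% and 37.3% of the 33866 probes were above background per array, and between 62 (E8 and LPA) and 77 (hCDL) of the 94 measured members. In this and later lists of markers and partners, a gene not measured was either not named by the annotation used or not above background on any array. Of 8 pluripotency markers 4 were measured (POU5F1, NANOG, LIN28A and L1TD1), and all 4 were above background on every array. Their summed level on the linear scale was 22910 to 23920 units in E8, Albumin, CDL and hCDL, 22580 in LPA, 20500 in LPA + Albumin and 20000 in AlbuMAX, and none of the 4 passed the test for LPA (limma adjusted p from 0.209 for NANOG to 0.602 for L1TD1).

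As background, integrins are pairs of an alpha and a beta subunit that bind matrix proteins outside the cell and link to actin inside it. Classical cadherins bind the same cadherin on a neighbouring cell at adherens junctions, claudins seal tight junctions, connexins form gap junction channels, and desmosomal plaques tie keratin filaments to the membrane. Human pluripotent stem cells grow as epithelial sheets that depend on E-cadherin and on integrin binding to matrix. LPA is a phospholipid that acts on G protein-coupled receptors and is known for activating the small GTPase RhoA, which raises actomyosin tension, and ROCK is a main effector of that GTPase.

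With LPA, 16 of the 94 measured members rose and none fell. All values are log2 normalized intensities, and differences are on that log2 scale. The 6 arrays other than AlbuMAX were fitted with limma as the sum of an LPA, an albumin and a lipid mixture effect. The LPA difference it gives averages LPA minus E8 with LPA + Albumin minus Albumin. The 16 members were 5 integrin alpha subunits, 2 integrin beta subunits, 3 cadherins, 3 claudins, the connexin GJB2, the scaffold TJP1 and the keratin KRT19. They make up 17.0% of the measured members. Among all 7982 genes tested, 875 passed at a limma adjusted p under 0.05, 530 (6.64%) rising and 345 (4.32%) falling, so the share rising was higher among the members and the share falling lower. Over the 52 members above background on all 7 arrays the median LPA difference was 0.17, against -0.03 over the 6263 genes above background on all 7. Members that were dim without LPA could enter only where they were high, so the count over all 94 is a description. In bulk RNA a change in the share of cells of a type and a change of RNA per cell cannot be told apart.

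The error of this model has 2 residual degrees of freedom. They hold how far LPA and albumin depart from adding up and how far CDL and hCDL differ. limma also pulls each gene's error toward a trend shared by genes of like intensity, so the p-values rest on other genes too. They measure departure from additivity between single arrays, pooled in part over genes, and not spread between cultures. The call on many members rested on single arrays. Without the Albumin array 4 of the 16 still passed (CDH6, CDH2, GJB2 and ITGA3), and without the LPA + Albumin array 3 did (CDH2, GJB2 and ITGA3). Without E8, and likewise without the LPA array, 11 of the 16 passed, the exceptions being CDH1, CLDN11, ITGA9, ITGB5 and KRT19, while JUP and KRT8 then passed. ESAM, ITGB7 and PCDHAC2 also crossed the threshold there, but from values below background in Albumin, so no weight is put on them. GJB2 was below background in every medium without LPA or AlbuMAX, so its passing in these fits is likewise given no weight. Without CDL or without hCDL 15 passed, the exception being CDH1. With the AlbuMAX array included as an albumin medium without LPA, none of the 16 passed (limma adjusted p from 0.379 to 0.438), nor did any of the 7982 genes. With the submitters' processed values, whose medians stay near those of the raw intensities, LPA differences of dimmer members were smaller, namely 1.17 for GJB2, 1.20 for CDH6, 0.65 for ITGA5, 0.48 for ITGA9 and 0.52 for ITGA2, and all 5 passed.

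**Figure D1:**
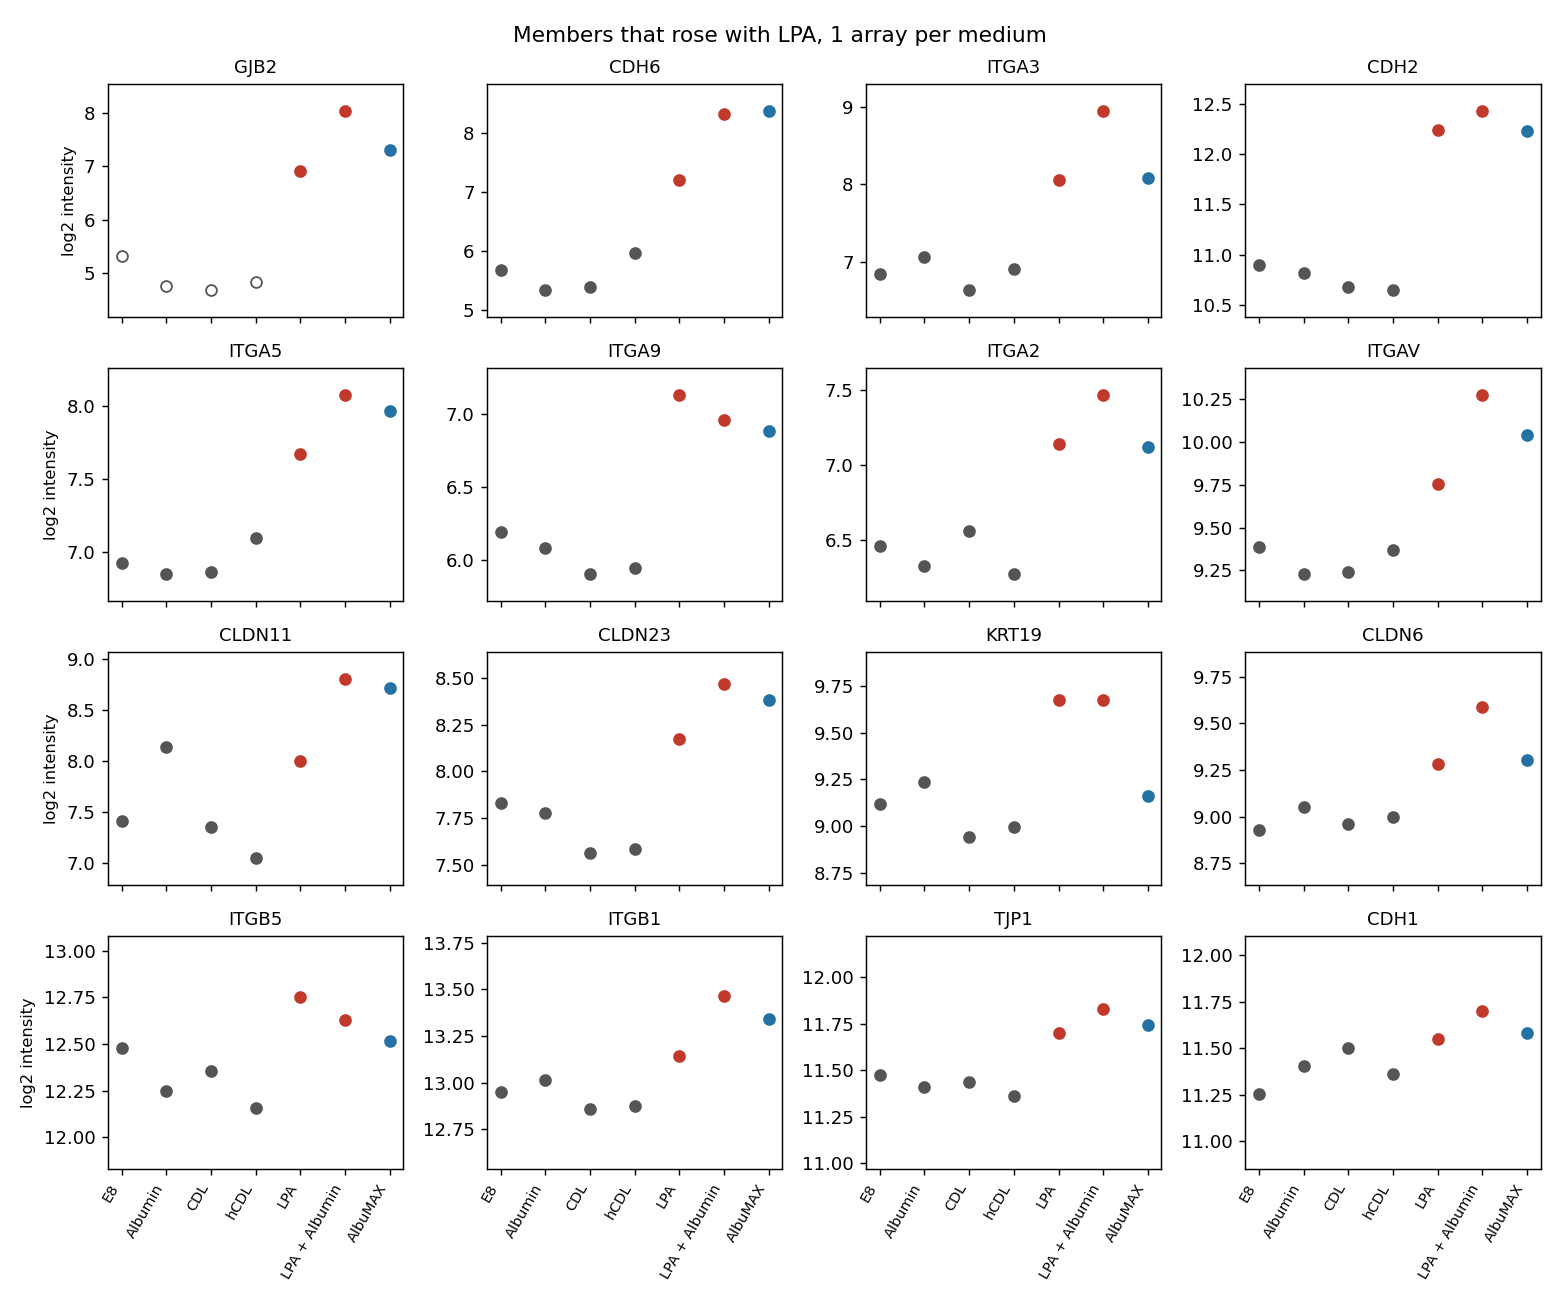
Log2 normalized intensity (y axes, each with its own range) of the 16 members that passed for LPA, in the 7 media (x axis), 1 array each. Grey points are media without LPA, red points LPA and LPA + Albumin, blue points AlbuMAX, and open points are not above background. In 15 of the 16 panels both red points lie above every grey point, the exception being CLDN11. Without that choice of members the same order held for 25 of the 94 (26.6%), against 17.8% of all genes.

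**Figure D2:**
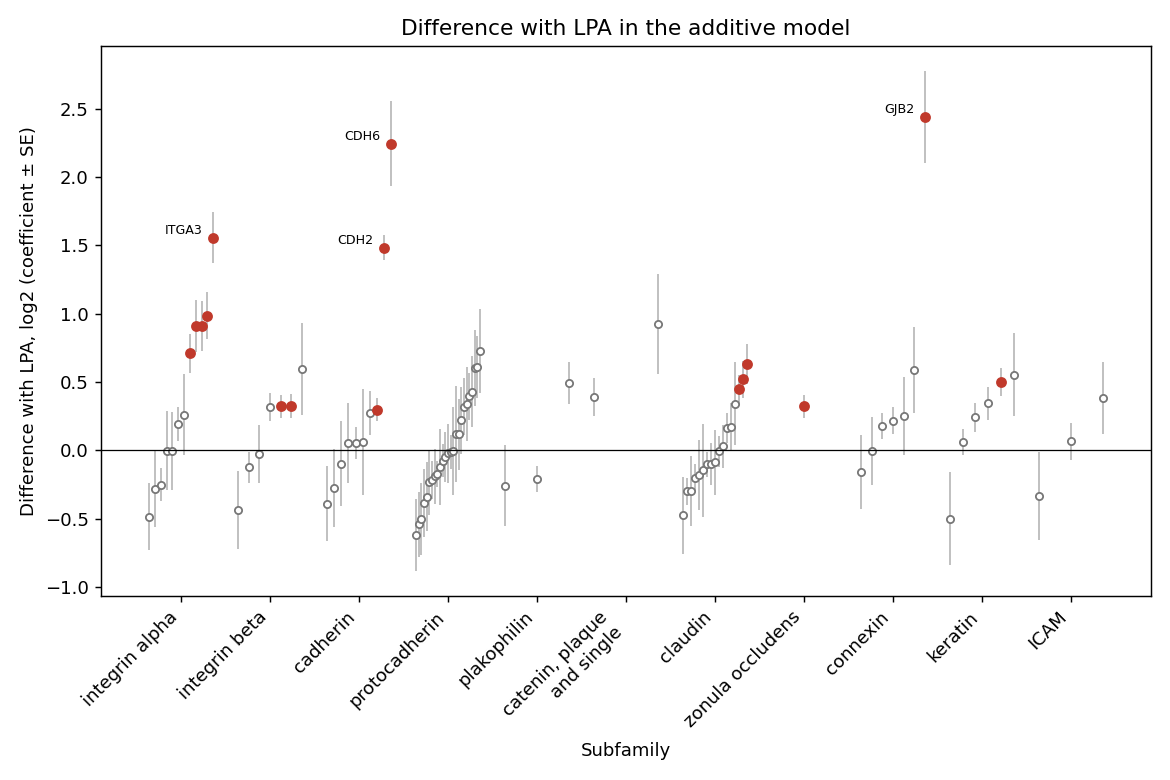
Difference with LPA (y axis, log2 coefficient of the additive model with its standard error as bars) for the measured members, grouped by subfamily (x axis). Red points passed at a limma adjusted p under 0.05 and open points did not. The passing members all lie above 0, and none is a protocadherin. PCDH11Y is not plotted.

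The largest LPA differences were those of GJB2, CDH6, ITGA3 and CDH2. RefSeq start-site windows (GRCh38.p14) were listed for 10 of the 16 members. The 250 bases before the first listed start are shown for 4 of them, CDH2 and GJB2 because they changed most among members with a window, CLDN11 because it had the smallest p for albumin among the members, and ITGA5 because it holds a TEAD motif. They are given 5′ to 3′ on the gene's strand, in lower case with motif matches in capitals. The CDH2 window lies at chr18:28177131-28177380 on the minus strand, GJB2 at chr13:20192939-20193188 on the minus strand, CLDN11 at chr3:170418618-170418867 on the plus strand and ITGA5 at chr12:54419267-54419516 on the minus strand.
CDH2: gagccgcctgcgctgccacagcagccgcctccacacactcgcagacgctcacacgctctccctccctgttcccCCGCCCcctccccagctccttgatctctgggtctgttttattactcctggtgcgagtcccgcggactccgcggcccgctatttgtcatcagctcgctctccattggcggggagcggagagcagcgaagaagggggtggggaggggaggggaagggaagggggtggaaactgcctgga
GJB2: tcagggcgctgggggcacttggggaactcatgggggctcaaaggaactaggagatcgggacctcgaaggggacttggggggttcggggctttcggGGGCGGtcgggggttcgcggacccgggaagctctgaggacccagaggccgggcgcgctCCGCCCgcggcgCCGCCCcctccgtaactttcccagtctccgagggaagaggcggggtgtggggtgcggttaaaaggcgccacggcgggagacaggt
CLDN11: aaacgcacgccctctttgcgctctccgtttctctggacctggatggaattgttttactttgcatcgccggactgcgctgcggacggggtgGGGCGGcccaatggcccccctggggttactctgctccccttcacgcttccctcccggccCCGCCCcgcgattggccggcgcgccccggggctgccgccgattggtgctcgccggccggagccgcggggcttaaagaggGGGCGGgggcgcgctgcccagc
ITGA5: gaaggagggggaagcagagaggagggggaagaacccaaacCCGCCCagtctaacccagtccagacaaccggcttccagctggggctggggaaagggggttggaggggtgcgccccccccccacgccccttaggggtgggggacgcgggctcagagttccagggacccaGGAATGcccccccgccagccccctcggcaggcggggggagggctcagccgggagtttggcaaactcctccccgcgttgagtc
The motifs searched on both strands were the GC box (GGGCGG), the TEAD motif (GGAATG), the AP-1 motif (TGANTCA) and the CArG box of serum response factor, by name. The CDH2 window shown holds 1 GC box, GJB2 3, CLDN11 3 and ITGA5 1 GC box and 1 TEAD motif, and the GC box and TEAD matches do not overlap. Over all 19 windows of the 10 genes, a GC box stood in 68.4% (42.6% of the 35116 windows of all genes), a TEAD motif in 10.5% (11.9% of all), an AP-1 motif in 5.26% (6.57% of all) and a CArG box in none (1.16% of all). The 4 windows shown are 66% to 71.2% G or C.

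Among integrin alpha subunits, 5 of the 12 measured rose with LPA. ITGA3, which pairs with beta 1 to bind laminins, read 6.84 in E8, 7.06 in Albumin, 6.63 in CDL, 6.91 in hCDL, 8.05 in LPA, 8.96 in LPA + Albumin and 8.09 in AlbuMAX. The 3 media with LPA or AlbuMAX lay above the other 4 with no overlap. Its LPA difference was 1.56 (SE 0.186, limma adjusted p = 0.000437), a 2.94-fold rise. ITGA5, the alpha subunit of the main fibronectin receptor, read between 6.85 and 7.10 in the 4 media without LPA or AlbuMAX, 7.67 in LPA, 8.08 in LPA + Albumin and 7.97 in AlbuMAX. It rose by 0.99 (SE 0.172, limma adjusted p = 0.0049). ITGA9, which binds tenascin and other ligands with beta 1, read 5.90 to 6.19 in those 4 media, 7.13 in LPA, 6.96 in LPA + Albumin and 6.88 in AlbuMAX, and rose by 0.91 (SE 0.184).

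ITGA2, a collagen-binding subunit, rose by 0.91 (SE 0.193, limma adjusted p = 0.0128), from 6.28 to 6.56 in the 4 media to 7.14 in LPA, 7.47 in LPA + Albumin and 7.12 in AlbuMAX. ITGAV, the subunit of the vitronectin receptors, rose by 0.71 (SE 0.144). It read 9.23 to 9.38 in the 4 media, 9.76 in LPA, 10.28 in LPA + Albumin and 10.04 in AlbuMAX. ITGA6, the laminin-binding subunit long used as a marker of pluripotent cells, did not pass (0.19, limma adjusted p = 0.353), and its values from 8.22 (E8) to 8.77 (LPA + Albumin) overlapped between media. ITGAE, which pairs with beta 7 to bind E-cadherin, had a difference of -0.25 and did not pass. The other measured subunits (ITGA4, ITGA2B, ITGAM, ITGA11 and ITGA7) were above background on some arrays only and did not pass. Without the Albumin array or without the LPA + Albumin array only ITGA3 among the 5 passed (limma adjusted p from 0.116 for ITGA9 to 0.267 for ITGA2 for the other 4), and ITGA9 did not pass without E8 or without LPA either.

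Of the beta chains, ITGB1 and ITGB5 rose by small amounts. ITGB1, the partner of most matrix-binding alpha subunits, read 12.86 to 13.01 in the 4 media without LPA or AlbuMAX, 13.14 in LPA, 13.47 in LPA + Albumin and 13.34 in AlbuMAX. Its difference was 0.32 (SE 0.0857, limma adjusted p = 0.0349), and its other 2 measured probes gave 0.48 and 1.01, so the size depends on the probe. ITGB5, a partner of alpha V, rose by 0.33 (SE 0.0895, limma adjusted p = 0.0403), with 0.41 and 0.24 from its other 2 probes. In AlbuMAX ITGB5 read 12.52, close to its 12.48 in E8. Neither ITGB1 nor ITGB5 passed without the Albumin array or without the LPA + Albumin array (limma adjusted p from 0.32 to 0.435), or with median centring (0.0652 and 0.0647), and ITGB5 did not pass without E8 or LPA. ITGB2, the leukocyte chain, did not pass (-0.03), nor, with all 6 arrays, did ITGB7, ITGB1BP1, ITGB3BP or ITGBL1.

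The classical cadherins moved unequally. CDH2 (N-cadherin), the cadherin of neural and mesenchymal cells, read 10.90 in E8, 10.81 in Albumin, 10.68 in CDL, 10.65 in hCDL, 12.25 in LPA, 12.44 in LPA + Albumin and 12.23 in AlbuMAX. The 3 arrays with LPA or AlbuMAX lay close together and well above the rest. CDH2 rose by 1.48 (SE 0.092, limma adjusted p = 7.72e-06), 2.8-fold. It passed in 14 of 15 alternatives, the exception being the fit that included AlbuMAX. CDH1 (E-cadherin), the cadherin of epithelia, read 11.25, 11.40, 11.50, 11.36, 11.55, 11.70 and 11.58 in the same order. Its difference of 0.30 (SE 0.086) barely passed (limma adjusted p = 0.0492), and it did not pass in 12 of 15 alternatives, among them every omission of a single array. CDH1 was not lower than E8 on any other array.

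CDH6 (K-cadherin), a cadherin of kidney and neural crest cells, read 5.68 in E8, 5.35 in Albumin, 5.39 in CDL, 5.96 in hCDL, 7.20 in LPA, 8.32 in LPA + Albumin and 8.37 in AlbuMAX. It rose by 2.24 with LPA (SE 0.313, limma adjusted p = 0.00123). Between single arrays, LPA exceeded E8 2.86-fold, and CDH6 was 7.85-fold higher in LPA + Albumin than in Albumin and 6.48-fold higher in AlbuMAX than in E8. Its signals in E8 and Albumin were only slightly above background, so these sizes depend on the processing. The LPA difference was 1.66 with an offset of 50 and 1.20 with the submitters' processed values. Without the LPA + Albumin array CDH6 did not pass (1.52, limma adjusted p = 0.0563). CDH3 (P-cadherin) read 10.62 to 11.03 and CDH11 (a mesenchymal cadherin) 6.76 to 7.34 over the 7 media, and neither passed (0.06 and 0.27). The remaining 5 measured cadherins, CDH15, CDH20, CDH23, CDH24 and CDH26, were above background on 1 to 6 arrays and did not pass.

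Of 17 measured claudins and claudin-like genes, 3 rose with LPA. CLDN11, the claudin of myelin and of testis barrier cells, read 7.41 in E8, 8.14 in Albumin, 7.35 in CDL, 7.05 in hCDL, 8.00 in LPA, 8.81 in LPA + Albumin and 8.72 in AlbuMAX. The Albumin array was above the LPA array, so for this gene media with and without LPA overlapped. CLDN11 rose by 0.63 with LPA (SE 0.147, limma adjusted p = 0.0207), while its albumin difference of 0.76 (SE 0.147) did not pass (limma adjusted p = 0.22). With median centring, which shifted the median of all genes by 0.13 in Albumin and 0.13 in hCDL relative to E8, the albumin difference was 0.87 and passed (limma adjusted p = 0.0412). Over the alternatives that adjusted p ran from 0.0412 to 0.872. The LPA call was lost without E8, Albumin, LPA or LPA + Albumin.

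CLDN23 rose by 0.52 (SE 0.139, limma adjusted p = 0.036), from 7.56 to 7.83 in the 4 media without LPA or AlbuMAX to 8.17 in LPA, 8.47 in LPA + Albumin and 8.38 in AlbuMAX. CLDN6, a claudin of embryonic epithelia, rose by 0.45 (SE 0.106, limma adjusted p = 0.0226), from 8.93 to 9.05 in those media to 9.28, 9.59 and 9.31. Neither passed without the Albumin array or without the LPA + Albumin array (limma adjusted p from 0.241 to 0.402). The 9 other claudins and claudin-like genes above background on all 7 arrays had differences from -0.30 (CLDN14) to 0.17 (CLDN1) and did not pass. They included CLDN7 at -0.01, CLDN10 at 0.17 and CLDN3 at 0.03. CLDN10, CLDN14 and CLDND1 each have another probe of opposite sign.

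TJP1 (ZO-1), the scaffold that ties claudins to actin, rose by 0.32 (SE 0.087, limma adjusted p = 0.0382). It read 11.36 to 11.48 in the 4 media without LPA or AlbuMAX, 11.70 in LPA, 11.83 in LPA + Albumin and 11.74 in AlbuMAX. Its other probe gave 0.22. The call was lost with median centring, with the submitters' processed values, with the mean of its probes, and without the Albumin or the LPA + Albumin array (limma adjusted p = 0.355 and 0.352).

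ESAM, an immunoglobulin-type adhesion molecule of endothelial tight junctions, was above background in LPA + Albumin alone. It read 4.42 in E8, 4.49 in Albumin, 4.35 in CDL, 4.56 in hCDL, 4.56 in LPA, 6.20 in LPA + Albumin and 5.25 in AlbuMAX, where the lowest signal above background lay between 5.17 and 5.36 depending on the array. ESAM was at least 1.83-fold higher in LPA + Albumin than in LPA and at least 2.03-fold higher than in Albumin. It passed neither for LPA (limma adjusted p = 0.135) nor for albumin (limma adjusted p = 0.8). It was tested only because of the LPA + Albumin array, and all its other values are below background, so it is described by these bounds. Of 4 endothelial markers, CDH5 and TEK were not measured, PECAM1 was above background in LPA only and KDR read 6.64 to 7.41 with no call. The genes most like CLDN11 over the 7 arrays were MXD4 (Pearson r = 0.991), PIGL (0.978), SEPTIN5 (0.973), GAS7 (0.972) and PIGC (0.969). Those most like ESAM were C16orf74 (0.994), GJB6 (0.991), THG1L (0.987), CAPNS1 (0.983) and LOC286083 (0.981). Of these, GJB6 and LOC286083 were above background on 1 array and C16orf74 on 2. The 7 arrays share their scaling, and these values describe likeness of level only.

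**Figure D3:**
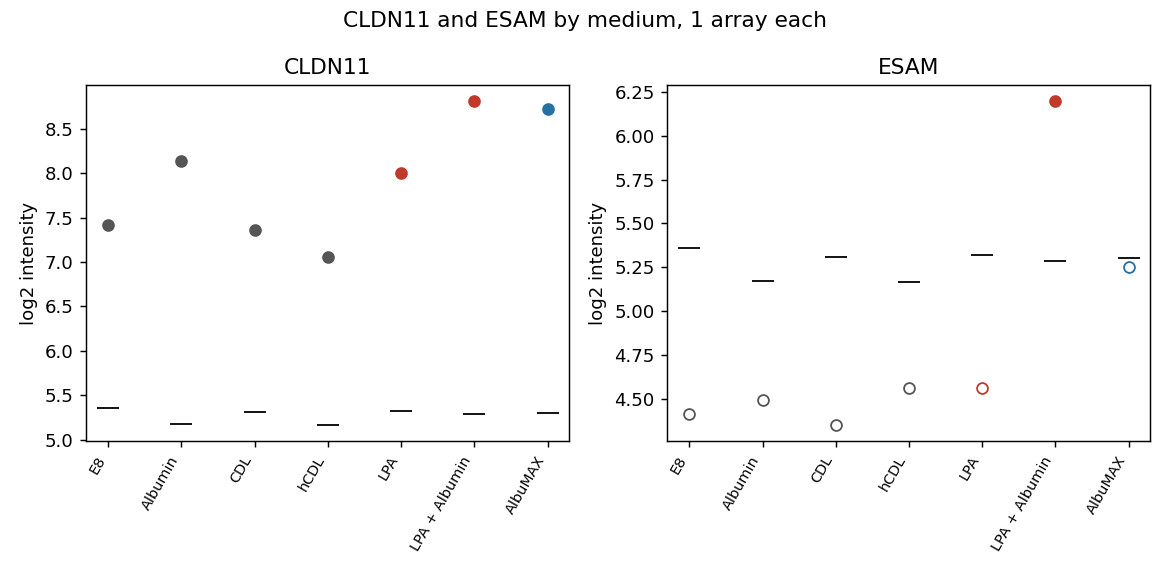
Log2 normalized intensity (y axes) of CLDN11 and ESAM in the 7 media (x axes), 1 array each, with media without LPA in grey, LPA media in red and AlbuMAX in blue. Black dashes mark the lowest signal above background on each array, and open points are not above background. CLDN11 lies above the dashes in every medium, and ESAM only in LPA + Albumin, at 6.20.

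The gap junction genes held 1 connexin that passed for LPA and 6 that did not. GJB2 (connexin 26), a channel of epithelia and the inner ear, was not above background in E8 (5.32), Albumin (4.75), CDL (4.69) or hCDL (4.84), and read 6.91 in LPA, 8.05 in LPA + Albumin and 7.31 in AlbuMAX. It rose at least 4.63-fold with LPA (limma adjusted p = 0.00113). GJB2 was tested only because of the 3 arrays where it was high, so it is described by these bounds and its p-value is no separate support. Its level in LPA was at least 2.93-fold that in E8. It was at least 7.32-fold higher in LPA + Albumin than in Albumin and at least 3.85-fold higher in AlbuMAX than in E8. GJA1 (connexin 43), a connexin found in pluripotent cells, read 12.97 to 13.27 over the 7 media (0.18, limma adjusted p = 0.261), and GJC1 (connexin 45) read 13.11 to 13.47 (0.22). GJB6 (connexin 30) was above background in LPA + Albumin alone at 5.38 and did not pass. GJA3, GJA4 and GJC3 were above background on 2 to 5 arrays and did not pass.

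No desmosome gene passed for LPA with all 6 arrays and 1 probe per gene. JUP (plakoglobin), a catenin of both desmosomes and adherens junctions, read 8.94 to 9.16 in the 4 media without LPA or AlbuMAX, 9.25 in LPA, 9.67 in LPA + Albumin and 9.30 in AlbuMAX. Its LPA difference of 0.39 (SE 0.14) did not pass (limma adjusted p = 0.105), and another probe, above background on 2 arrays, gave -0.14. JUP did pass without E8 or without the LPA array (0.68, limma adjusted p = 0.0134 and 0.0133), where LPA + Albumin minus Albumin stands alone. PKP2, a plakophilin of simple epithelia and heart, read 6.68 to 7.28 in those 4 media, 7.53 in LPA, 7.85 in LPA + Albumin and 7.73 in AlbuMAX, with a difference of 0.49 that did not pass (limma adjusted p = 0.0625), though it did with the mean of probes per gene (limma adjusted p = 0.0446). PKP4, a plakophilin relative found at junctions, stood at -0.21 without passing, and its other probe, above background on all 7 arrays, gave 0.097.

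Of 52 keratin symbols named, 6 were measured and KRT19 rose. KRT19, a keratin of simple epithelia, read 9.12 in E8, 9.23 in Albumin, 8.94 in CDL, 9.00 in hCDL, 9.67 in LPA, 9.68 in LPA + Albumin and 9.16 in AlbuMAX. It rose by 0.50 with LPA (SE 0.102, limma adjusted p = 0.0108). KRT19 in AlbuMAX lay within the range of the media without LPA. The call was lost without E8, Albumin, LPA or LPA + Albumin (limma adjusted p = 0.0704 without Albumin and 0.0747 without LPA + Albumin). KRT8, the type II keratin of simple epithelia, read 10.61 to 11.03 and did not pass (0.24, limma adjusted p = 0.176), and KRT10 read 9.73 to 10.10 (0.06). KRT80 and KRT16P2 were each above background on 1 array. Among the ICAMs, immunoglobulin-type ligands of leukocyte integrins, ICAM3 read 7.80 to 8.07 in all media and did not pass (0.07), and ICAM1 was above background in hCDL alone.

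The protocadherins, many of them neuronal adhesion molecules from clustered genes with near-identical sequence, gave no call among 26 measured genes. The 12 above background on all 7 arrays had LPA differences from -0.62 (PCDHB15) to 0.40 (PCDHA1). PCDHB15 read 6.12 in E8, 6.55 in Albumin, 6.45 in CDL, 5.79 in hCDL, 5.82 in LPA, 5.61 in LPA + Albumin and 5.74 in AlbuMAX (limma adjusted p = 0.164), so media with and without LPA overlapped. PCDH10 and PCDHAC2 were not above background in Albumin and were at least 1.84-fold and at least 2.08-fold higher in LPA + Albumin, yet near their E8 values in LPA (differences from E8 of 0.13 and 0.01), and 2 further probes of PCDHAC2 gave LPA differences of -0.08 and -0.06. Signal shared between protocadherin probes was not tested.

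The LPA difference was then viewed without and with albumin, in pairs that share no array. Of the 94 members, 42 (44.7%) were higher both in LPA than in E8 and in LPA + Albumin than in Albumin, 28 (29.8%) lower in both and 24 (25.5%) opposite, against 31.4%, 36.6% and 31.9% of all genes tested. Counts at 1.5-fold between single media, here and below, compare normalized signals, and only the brighter array had to be above background. Taken alone, LPA + Albumin had 19 members 1.5-fold higher and 3 lower than Albumin (20.2% and 3.19%, against 9.45% and 6.95% of all genes, 16.4% in either direction). At 1.5-fold, 9 members (9.57%) were higher in both, against 3.71% of all genes, and none was lower in both, against 1.35%. GJB2, CDH6 and ITGA3 were higher in LPA + Albumin than in LPA, by 2.2-fold, 2.18-fold and 1.87-fold, and CLDN11 by 1.75-fold. LPA + Albumin was higher than LPA in 14 of the 16 members that passed for LPA (87.5%, against 89.2% of all 530 genes that rose), the exceptions being ITGA9 and ITGB5. That array enters the LPA difference by which they were chosen. At 1.5-fold, 9 of the 94 members (9.57%) were higher and 2 lower in LPA + Albumin than in LPA, against 4.26% and 2.83% of all genes (7.09% in either direction). When the interaction of LPA with albumin was tested with 1 residual degree of freedom, no member passed in limma, against 0.0376% of all genes (10 of 94, 10.6%, at an unadjusted p under 0.05, against 8.01% of all genes). The 4 members with the smallest unadjusted p were GJB2, ITGAV (0.68), CDH3 (0.54) and PCDHAC2, with limma adjusted p = 0.451, 0.49, 0.505 and 0.507, and CDH6 followed (1.46, limma adjusted p = 0.515). No size is given for GJB2 and PCDHAC2, which were below background in media that enter the term. With the submitters' processed values GJB2 was the 1 member that passed (limma adjusted p = 0.0341).

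**Figure D4:**
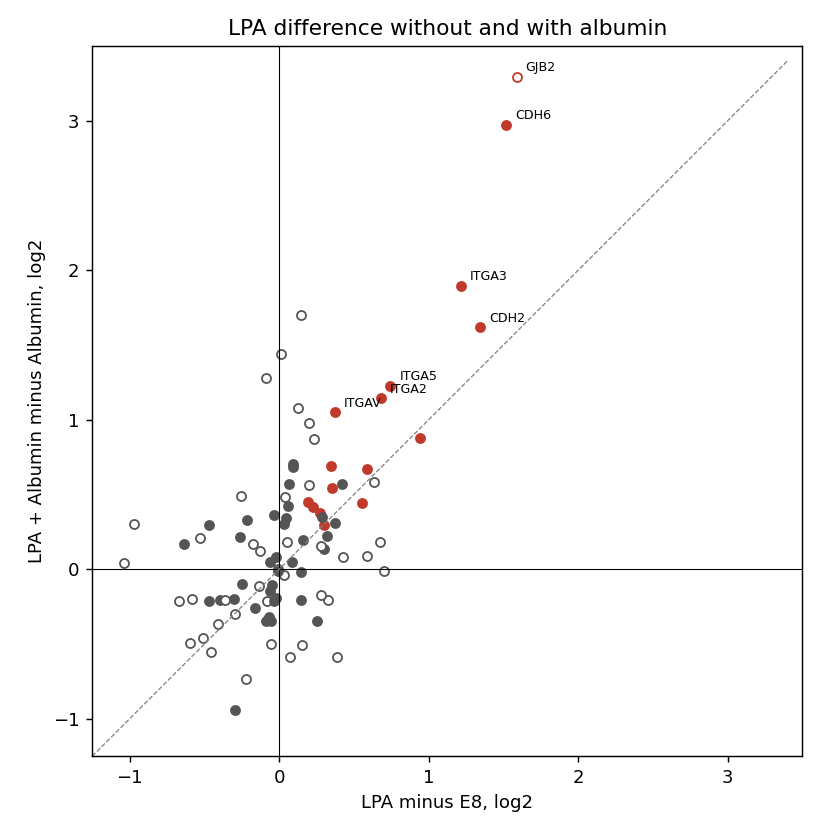
LPA minus E8 (x axis) against LPA + Albumin minus Albumin (y axis), both log2 differences, for the measured members. Red points passed for LPA, open points were not above background on all 7 arrays, and the dashed line marks equal differences. CDH6 lies above the line, at 2.97 on the y axis, and GJB2, below background in E8 and Albumin, is plotted at its measured signal, which is no exact size. PCDH11Y is not plotted.

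AlbuMAX was left out of the additive model except in the alternative given above. By normalized signal it placed 18 members 1.5-fold or more above E8 and 6 below, with the brighter array above background. These are 19.1% and 6.38% of the members, against 7.42% and 5.56% of all genes (13.0% in either direction). Where the dimmer array was below background the bound can be under 1.5-fold. CDH24, counted as higher, was at least 1.117-fold above E8, and KRT16P2, counted as lower, at least 1.115-fold below it. Among the 52 members above background on all 7 arrays, 10 were higher and 1 lower (5.22% and 3.85% of all such genes). The 5 highest were CDH6 (6.48-fold), GJB2 (at least 3.85-fold), CDH2 (2.51-fold), CLDN11 (2.47-fold) and ITGA3 (2.38-fold). All 16 members that passed for LPA were higher in AlbuMAX than in E8, and 15 of them, all but KRT19, lay above each of E8, Albumin, CDL and hCDL. Among all 530 genes that rose with LPA the shares were 98.9% and 96.2%, so the members stood near the share of any risen gene. For 10 of the 16 AlbuMAX lay between LPA and LPA + Albumin, for 5 below both and for CDH6 above both (62.5%, 31.2% and 6.25%, against 59.1%, 29.8% and 10.8% of the risen genes). AlbuMAX shares E8 as its reference with the LPA comparison, so these values are given side by side and not as separate support. Against Albumin, AlbuMAX had 13 members higher and 5 lower at 1.5-fold (19.1% together, against 13.7% of all genes). There it was 8.17-fold higher for CDH6, 2.66-fold for CDH2, 2.17-fold for ITGA5 and 2.04-fold for ITGA3. Set against LPA + Albumin, AlbuMAX was 1.83-fold lower for ITGA3, 1.67-fold lower for GJB2 and at least 1.86-fold lower for ESAM, and 4 members were higher and 3 lower at 1.5-fold (4.26% and 3.19%, against 2.00% and 2.84% of all genes, 4.85% in either direction).

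Against E8, LPA had 11 members 1.5-fold higher and 5 lower (11.7% and 5.32%, against 6.19% and 3.98% of all genes, 10.2% in either direction), and LPA + Albumin 18 higher and 5 lower (19.1% and 5.32%, against 9.35% and 6.73%, 16.1% in either). Albumin alone had 3 higher and 7 lower (3.19% and 7.45%, against 2.64% and 2.38%, 5.02% in either). CDL had 4 higher and 5 lower (4.26% and 5.32%, against 3.04% and 2.91%, 5.95% in either), and hCDL 6 higher and 5 lower (6.38% and 5.32%, against 2.57% and 1.87%, 4.43% in either). Most of these members in Albumin, CDL and hCDL were dim, and the counts took signals below background as they stood. None of the members counted as higher in hCDL had a bound of 1.5-fold. CLDN25 in CDL and CDH24 in Albumin (at least 1.07-fold) were likewise counted with smaller bounds. Among the 52 members above background on all 7 arrays, LPA had 7 higher and 1 lower (4.14% and 2.54% of such genes) and LPA + Albumin 11 higher and none lower (7.20% and 5.40%). CDL had none at 1.5-fold (1.47% higher and 1.18% lower among such genes). Albumin had CLDN11 higher and CLDN15 and PCDHB16 lower (0.623% and 1.12%), and hCDL had CLDN15 and PCDH20 lower (0.607%). The dim members led in the lipid mixtures. In CDL, ITGA11, CDH26 and CLDN25 were at least 1.55-fold, at least 1.54-fold and at least 1.39-fold above E8, and in hCDL CDH23 was at least 1.3-fold above it. Between the lipid mixtures, CDL had 4 members higher and 6 lower than hCDL (2.61% and 2.47% of all genes, 5.07% in either direction). CLDN15, a cation-pore claudin of intestine, read 6.54 in E8 and between 5.74 and 6.12 in the other 6 media.

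**Figure D5:**
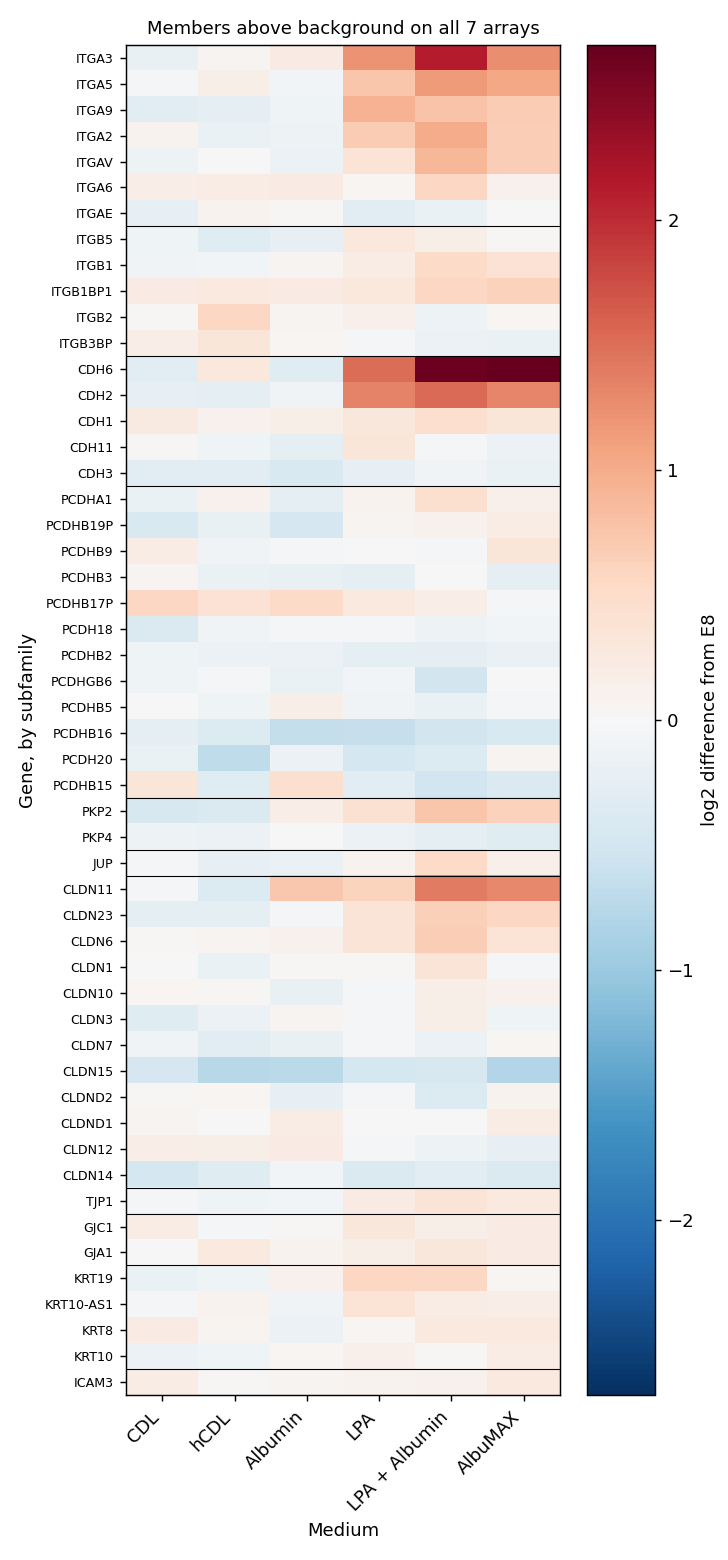
Log2 difference from E8 (colour) for the 52 members above background on all 7 arrays (rows, grouped by subfamily and ordered by LPA difference within it) in the 6 other media (columns). Columns share the E8 array. The LPA, LPA + Albumin and AlbuMAX columns are red for the integrin alpha subunits that passed and for CDH6 and CDH2, and CLDN15 is blue in every column.

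No member passed for albumin in limma (6 of 94, 6.38%, at an unadjusted p under 0.05, against 6.23% of all genes, while 0.100% of all genes passed, 0.0125% rising and 0.0877% falling). After CLDN11 the smallest unadjusted p-values were those of ITGA3 (0.56), ITGA6 (0.36) and ITGB1BP1 (0.25), with limma adjusted p = 0.79 for ITGA3 and 0.8 for the others. For the lipid mixtures no member and no gene passed (4 members, 4.26%, at an unadjusted p under 0.05, against 3.77% of all genes). The 4 were CLDN14 (-0.35), PCDH9, ICAM4 and ITGB1BP1 (0.26), all at a limma adjusted p of 0.99. No size is given for PCDH9, below background in E8, CDL and hCDL, or for ICAM4, below background in CDL. Some members differed on the E8 array alone. ICAM4, a red cell adhesion molecule, read 6.34 in E8 and 4.90 to 5.39 in the other 6 media, but on its other probe, above background on 1 array, E8 was the lowest array (4.38). KRT16P2 and ITGBL1 were above background in E8 only (5.46 and 5.45). E8 was the highest array for 14 of the 94 members and the lowest for 14 (14.9% each, against 14.0% and 12.2% of all genes).

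Partners of these genes were counted from lists of known components. Of 20 integrin adaptors and other integrin partners (among them CD9, CD151 and CD47), 15 were measured. With LPA 8 of these rose, CD151 among them, and none fell (6.64% and 4.32% of all genes), with a median of 0.54 (-0.03 over all genes). The 8 also included the parvin PARVA at 0.97 (SE 0.195), the PINCH protein LIMS1 at 0.87 (SE 0.123) and the actin crosslinker ACTN1 at 0.82 (SE 0.114), with limma adjusted p = 0.00983, 0.00137 and 0.00119. Of 15 intermediate filament and plakin genes 10 were measured, 5 rose (6.64% of all genes) and none fell, with a median of 0.35, led by nestin (NES) at 1.60 (SE 0.118), lamin A/C (LMNA) at 1.44 (SE 0.161) and periplakin (PPL) at 1.04 (SE 0.152). Of 19 tight junction partners 11 were measured and none passed (median 0.09). Of 15 adherens junction partners only LIMA1 was measured, and it rose by 0.55. The others were unnamed in the annotation used or not above background, so their absence here is not a lack of expression. Of 12 factors listed for epithelial to mesenchymal transition 5 were measured, with a median of -0.12, and TWIST1 alone passed. It rose from below background in E8 and Albumin, at least 17.1-fold (limma adjusted p = 1.08e-05). TWIST1 was above background on 3 arrays, those with LPA or AlbuMAX, so it was tested only where it was high and its p-value is no separate support. The other 4 did not pass. OVOL2 (-0.41) and GRHL2 (-0.23) were above background on all 7 arrays, and OVOL1 (0.21) and TWIST2 (-0.12) on 5 and 2.

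Markers of other cell types moved with LPA in part. Of 4 endoderm markers 2 were measured. AFP read 5.80 to 6.71 in the 4 media without LPA or AlbuMAX and 8.74 to 9.17 in the other 3, a rise of 2.36 with LPA (SE 0.231, limma adjusted p = 0.000101), while SOX17 and GATA6 were not measured and FOXA2 was above background in Albumin only. The summed level of AFP and FOXA2 was 84.5 to 137.3 in those 4 media, 453.3 in LPA, 451.3 in LPA + Albumin and 599.6 in AlbuMAX. This sum follows AFP alone. FOXA2 read 4.85 to 5.65 in those 4 media and 4.43 to 4.71 in the other 3, nearly all below background. Of 4 neuroectoderm markers TUBB3 alone was measured and rose by 0.50, from 2969 to 3622 linear units in the 4 media to 4634 in LPA, 5265 in LPA + Albumin and 4740 in AlbuMAX. Of 5 fibroblast markers PDGFRA and PDGFRB were measured and neither passed, with summed levels of 123.5 to 153.3, 168.8, 289.1 and 213.1 in the same order. None of 5 mesoderm markers was measured, and of 5 trophoblast or amnion markers CGA and ISL1 were above background on 1 and 2 arrays. Their part in the differences above was not tested.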

How the data were processed

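Expression was measured with 7 Illumina bead arrays, 1 per medium, and samples were grouped by the treatment label. Per the file headers, the authors deposited for every probe an intensity before normalization and its detection p-value, and no source used here names the software. Processed intensity values were deposited too. They are linear, rank each array's probes identically (correlation 1, at most 0.869 with other arrays) and have medians of 112.4 to 112.5, but how they were made is unknown. GEO's platform annotation gave 1 symbol to 19221 probes and several to 3, left 14642 without a name here, and needed 0 updates through Entrez identifiers.

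The neqc function of limma 3.58.1 in R 4.3.3 corrected the background (normexp, offset 16, negative controls estimated through the detection p-values), normalized by quantiles and took log2. Probes above background (detection p under 0.01) on at least 1 array were kept. The probe with the highest mean stood for a gene, giving 7982 genes. Of 17 members with several probes, 8 had the same sign for LPA on all. limma with an intensity trend in the prior was fitted to 6 arrays with terms for LPA, albumin and lipid mixture. Benjamini-Hochberg adjustment ran over all genes, at 0.05. Single media were set against E8 at 1.5-fold with no test. Counts at 1.5-fold used the normalized signals without bounds and required only the brighter array to be above background. A fold against a probe not above background is a bound ("at least"), whose denominator is that array's lowest signal above background, or the probe's own signal if brighter. The steps were tested on simulated data.

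The rule for naming took, per term, up to 12 passing members in each direction or else the 4 with the smallest p, per medium the 5 highest and 5 lowest, per subfamily the 2 brightest, and 17 fixed genes. All 16 that passed for LPA are named, and some dim ones the rule takes are not. The members, lists and tests were chosen with earlier results of these data known. No label says whether cultures were separate.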

Additional observations from a re-analysis of the deposited data

How the results depend on the processing

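With LPA, the number of members that passed was 16. It was 14, 15, 16, 12 and 16 (15 of the same genes) with the submitters' processed values, an offset of 50, cyclic loess, median centring and the mean of probes, all rising. It fell to 8 without a filter on dim probes (12851 genes tested, 3.98% called), to 3 without an intensity trend (2.03% called), and to 0 with AlbuMAX added as a further albumin medium, and it ran from 3 to 16 when 1 array was left out. For albumin the count of 0 became 1 with median centring (CLDN11), and for the interaction of LPA with albumin 0 became 1 with the submitters' processed values (GJB2). For both albumin and the lipid mixtures it stayed at 0 with any 1 array left out. Counts of members 1.5-fold from E8 in AlbuMAX, Albumin, CDL, hCDL, LPA and LPA + Albumin were 24, 10, 9, 11, 16 and 23. They were 7, 0, 0, 0, 4 and 9 with the submitters' processed values, 9, 2, 2, 2, 7 and 13 with an offset of 50, and 11, 3, 0, 2, 8 and 11 among genes above background on all 7 arrays, an alternative chosen after seeing the data. Except where stated here or above, the share of all genes under an alternative is not given. Such counts do not show whether members and other genes changed alike. CDH23 in hCDL minus E8 became -0.31 without a filter on dim probes, where another probe stands for the gene, and PCDH11X in CDL minus E8 became -0.12 with the mean of its probes. No paired analysis was possible because each medium has 1 array and the labels number no replicates. Signals near background limit the dim members.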

Other observations

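Of the 19 members above background on a single array, 6 were seen in hCDL, 4 in LPA + Albumin, 3 in E8, 3 in Albumin, 2 in AlbuMAX, 1 in LPA and none in CDL. Over the 566 genes above background on a single array, 20.5% were seen in hCDL, 16.8% in LPA + Albumin, 9.72% in E8 and 22.6% in Albumin. The shares for AlbuMAX, LPA and CDL were 10.4%, 10.1% and 9.89%. The hCDL array had the most probes above background, 12632 of 33866. In hCDL the highest of these members was CDH23, a cadherin of hair cell tip links, at 5.74. In LPA + Albumin they were ESAM (6.20), ITGB7 (5.64), GJB6 (5.38) and the keratin KRT80 (5.29). LPA + Albumin was the highest of the 7 arrays for 28 of the 94 members (29.8%, against 19.5% of all genes), and CDL the lowest for 22 (23.4%, against 13.9%).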
